A study of Rattus norvegicus with 4 samples.

Results

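The stretch of rat chromosome 10 from 60 Mb to the last peak at position 112624245 (Rnor_6.0) is described here by its CD44 ChIP-seq peaks in cells kept in serum and in serum-starved cells. Its members are the peaks that start beyond 60 Mb. They were 1196 of the 289279 peaks of the serum list and 7320 of the 409937 peaks of the starved list, over 52.6 Mb. The peaks of the same chromosome that start at or before 60 Mb, 4831 in serum and 8870 in starved cells, served as the comparison within each list. The 2 sides are called distal and proximal by their numbering only. The stretch was chosen by the number of serum peaks along the chromosome, which is low there, so the serum count is a description and supports nothing.

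The cells were rat nucleus pulposus cells, from the gel-like core of the intervertebral disc. They were kept in DMEM-F12 with 10% fetal bovine serum, or starved in 0.1% serum. Each condition had 1 library precipitated with an antibody against CD44 beside 1 input library without precipitation, 4 libraries in all, and the authors deposited 1 peak list for each. The labels give no donor animal, passage or length of starvation, and peak lists hold no expression by which the cell type could be checked. A single precipitated library stands for each condition, so no difference could be set against a spread between replicates and no p-value is given. Intervals are exact 95% intervals for counting error alone, which treat peaks as independent although neighbours are not.

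CD44 is a receptor in the cell membrane that binds hyaluronan, a large sugar polymer of cartilage and disc matrix. Enzymes can cut CD44 at the membrane, and the released intracellular end can enter the nucleus and take part in the control of transcription. In ChIP-seq, DNA fragments recovered with the antibody are stacked along the genome. A peak is called where the stack is higher than a local background, so a place with a higher background needs a higher stack. In RefSeq's annotation of another build, GRCr8, chromosome 10 carries Sox9, a transcription factor of cartilage, Col1a1, a chain of type I collagen, Timp2, an inhibitor of matrix proteases, all 10 searched genes of the Hoxb cluster and 23 of 24 type I keratins. These genes were searched with the chromosome in mind. Peaks were not assigned to genes, because an annotation of Rnor_6.0 was not used here.

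What counts as a peak differed between the lists. Read totals were not used and library scaling is unknown, so depth, scaling and the control cannot be told apart here. The lowest local background of any peak was 1.502 fragments in serum and 0.0996 fragments in starved cells. The smallest serum peak had a pileup of 4 fragments, the height of the stack at its top, while 1 fragment was enough in the starved list. In the distal stretch 42.5% of the starved peaks had a pileup of 1. Levels are therefore compared between the 2 sides of the chromosome within a list, and not between lists.

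Distal chromosome 10 held few serum peaks and a nearly usual number of starved peaks. The serum density was 22.7 peaks per Mb (interval 21.5 to 24.1) in the distal and 80.5 per Mb (interval 78.3 to 82.8) in the proximal part, a ratio of 0.282 (interval 0.265 to 0.301). The starved density was 139 per Mb (interval 136 to 142) in the distal and 148 per Mb (interval 145 to 151) in the proximal part, a ratio of 0.941 (interval 0.912 to 0.971). Serum peaks covered 0.879% of the distal and 3.13% of the proximal part, and starved peaks covered 3.87% and 4.29%. The 2 ratios come from 1 library each, and their difference was not tested.

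The low serum count did not begin at 60 Mb. The last 2 Mb window before the boundary, from 58 to 60 Mb, held 148 serum peaks, and the first window beyond it, from 60 to 62 Mb, held 170. The next window, from 62 to 64 Mb, held 79, and the one from 64 to 66 Mb held 23. In the starved list the same 4 windows held 278, 342, 299 and 309 peaks. The serum count thus fell within 62 to 64 Mb, where the starved count did not leave its range elsewhere on the chromosome.

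Bins of 250 kb placed the change more closely. From 62 to 63 Mb the serum list had 21, 6, 7 and 19 peaks in the 4 bins. The bin from 63 to 63.25 Mb had 12, and each of the 11 bins that follow, up to 66 Mb, had 1 to 7. Starved peaks numbered 31 to 52 in these 11 bins. The serum counts of single bins are small, so the edge cannot be placed to better than a few bins.

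**Figure D1:**
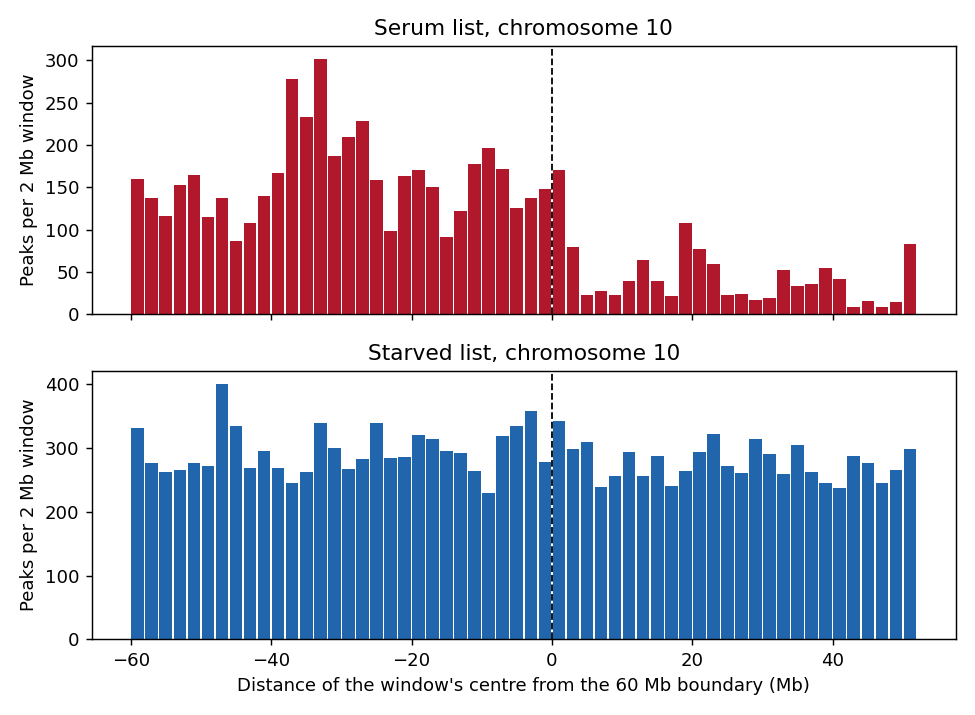
Peaks per 2 Mb window along chromosome 10 in the serum list (top) and the starved list (bottom), against the distance of the window from 60 Mb (dashed line); the last, incomplete window is not drawn. Serum windows left of the line hold 87 to 302 peaks and those right of it 8 to 170, while starved windows hold 230 to 401 and 237 to 342.

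Of the 26 complete distal windows of 2 Mb, 24 held fewer serum peaks than the lowest proximal window, which had 87. Over the 20 autosomes, 11.0% of 1301 windows were below that count. The distal windows held 8 to 170 serum peaks with a median of 34, and the 30 proximal windows 87 to 302 with a median of 156. The 2 distal windows that overlapped the proximal range were those from 60 to 62 Mb and from 78 to 80 Mb, which had 108. Starved counts of the 26 windows lay between 237 and 342 with a median of 274, all within the proximal range of 230 to 401 with a median of 286. This held for all listed starved peaks only. Counting those with a corrected p-value (q) of at most 0.05, 20 of the 26 windows were below the lowest proximal window, which had 123. At a −log10 q of 5 or more, 9 were below the lowest, which had 24. The shares of all autosomal windows below these limits were not computed.

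The distal stretch was itself uneven in serum. The windows from 102 to 104 Mb and from 106 to 108 Mb had 8 serum peaks each, beside 288 and 245 starved peaks. Higher counts stood from 78 to 84 Mb, where 3 windows in a row had 108, 77 and 59 serum peaks, and from 110 to 112 Mb, with 83. The incomplete window from 112 Mb to the end had 41 serum and 95 starved peaks. Serum counts of the 26 windows spanned 21.3-fold and starved counts 1.44-fold. The counting intervals of the windows with 8 and 108 serum peaks, 3.45 to 15.8 and 88.6 to 130, lie far apart.

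The spacing of the serum peaks largely restates their low density, by which the stretch was chosen, so it is a description and no separate result. The median gap between neighbouring serum peaks was 15.1 kb in the distal (quartiles 4.24 and 45.5 kb) and 6.71 kb in the proximal part (quartiles 2.56 and 15.1 kb). For starved peaks it was 4.39 kb and 4.05 kb. Gaps of over 100 kb numbered 142 between distal serum peaks and took up 57.3% of the stretch, against 16 gaps and 3.41% in the proximal part. Only 1 such gap lay between distal starved peaks, at 72570922 to 72734632. It held no serum peak either.

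**Figure D2:**
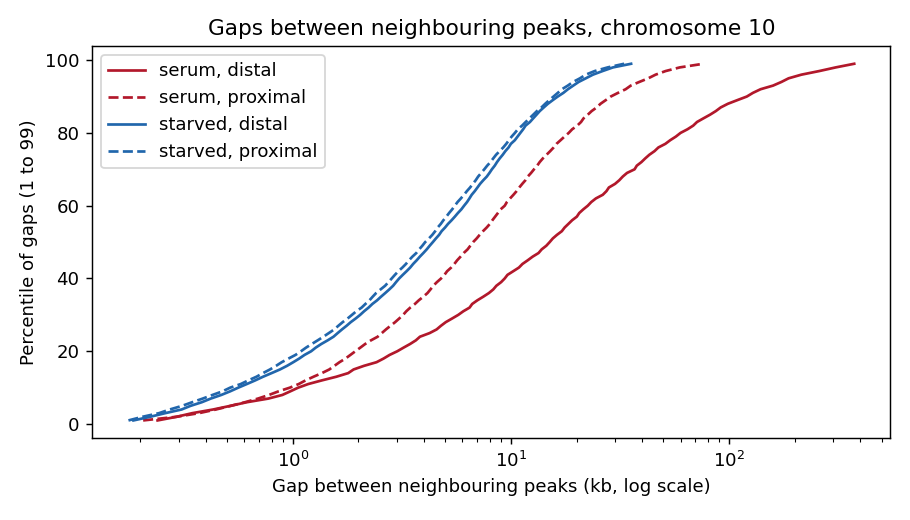
Percentiles 1 to 99 of the gap between neighbouring peaks (kb, log scale) in each list and part of chromosome 10. The starved curves of both parts nearly coincide (medians 4.39 and 4.05 kb), while the distal serum curve (median 15.1 kb) lies right of the proximal one (6.71 kb), most of all at long gaps.

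Long stretches without a serum peak held many starved peaks. The longest ran from 101843284 to 102658522, 815 kb, and held 114 starved peaks, 33 of them with a q (the authors' corrected p-value) of at most 0.05 and 15 called strong here, with a −log10 q of 5 or more. The next ran from 107147950 to 107784996 with 94 starved peaks, and the next from 103530520 to 104096110 with 92. The tallest starved peaks in these 3 gaps had pileups of 17, 15 and 10. Inside all distal serum gaps of over 100 kb, 30.2 Mb together, the starved list had 130 peaks per Mb, against 151 per Mb in the rest of the stretch. Their median pileup was 2 fragments inside and outside. A q of at most 0.05 held for 35.9% of the starved peaks inside and 44.0% outside, against 52.0% of the whole starved list. Strong peaks were 9.08% inside and 11.5% outside, against 13.0% of the list.

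Low serum peaks were scarce in the distal part and tall ones much less so. Peaks with a pileup under 10 numbered 894 in the distal and 4393 in the proximal part, a density ratio of 0.232 (interval 0.216 to 0.249). Peaks with a pileup of at least 10 numbered 302 and 438, a ratio of 0.786 (interval 0.677 to 0.912). The limit of 10 was chosen after seeing the data. At a pileup of exactly 5 there were 68 distal and 864 proximal peaks, and at exactly 9 there were 170 and 343. The median pileup was 8 in distal serum peaks (quartiles 7 and 10) and 7 in proximal ones (quartiles 6 and 8).

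The serum ratio moved step by step with the pileup. It came to 0.329 at a pileup of at least 6, 0.405 at 7, 0.535 at 8 and 0.689 at 9. At a pileup of at least 12 it was 0.839 with an interval of 0.680 to 1.03, which includes an equal density. In the starved list the ratio lay between 0.829 and 1.06 at the 9 least pileups computed, which ran from 1 to 15. At a starved pileup of at least 10, 187 distal and 239 proximal peaks gave 0.892 (interval 0.733 to 1.08).

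**Figure D3:**
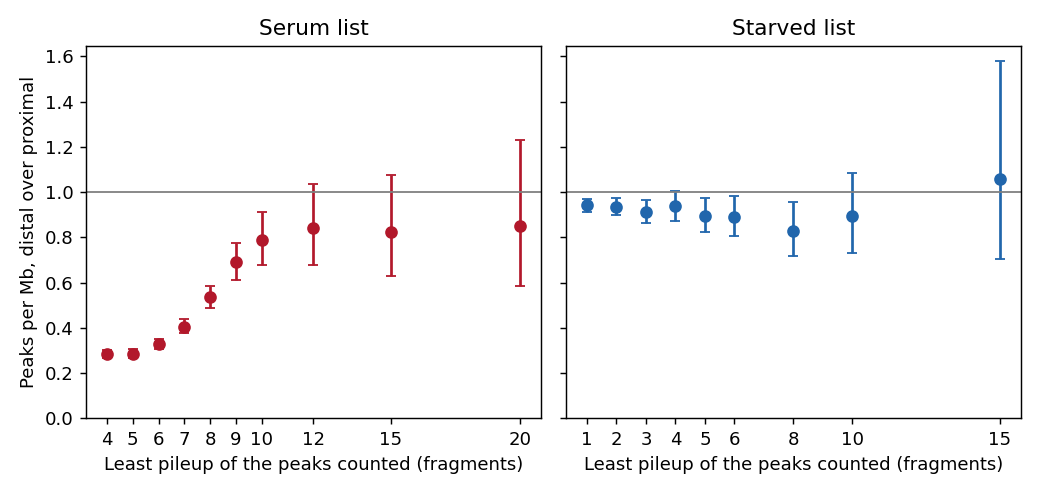
Ratio of the distal to the proximal peak density of chromosome 10 among peaks of at least the given pileup (fragments), with exact 95% intervals from counting error; the grey line marks equal density. Serum ratios climb from 0.282 at a pileup of 4 to 0.786 at 10, while starved ratios lie between 0.829 and 1.06.

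The local background under the peaks changed at the same place in both lists. It was computed from the deposited fold enrichment and pileup and is given as a multiple of the lowest of its list. Its median was 1.60 in distal serum peaks (quartiles 1.29 and 2.04) and 1.18 in proximal ones (quartiles 1.08 and 1.45), a ratio of 1.35. In starved peaks it was 2.06 (quartiles 1.75 and 2.48) and 1.42 (quartiles 1.15 and 1.77), a ratio of 1.45. It is known only where a peak was called, and a few values recur, since it counts few fragments: 2.13, 2.48 and 1.77 were the commonest in distal starved peaks. With the mean in place of the median, the ratio was 1.31 in both lists.

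In 25 of the 26 distal windows the median starved background was above the highest proximal window (1.54), and in 25 the median serum background was above that of the highest proximal serum window (1.38). Over the 20 autosomes, 15.8% of windows were above the starved limit. The exception in both lists was the window from 60 to 62 Mb, at 1.42 in the starved and 1.18 in the serum list. The window from 62 to 64 Mb stood at 2.02 and 1.59. The fall in serum peaks and the rise in background thus lay in the same 2 Mb window. The part of the background in the low serum count was not tested.

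**Figure D4:**
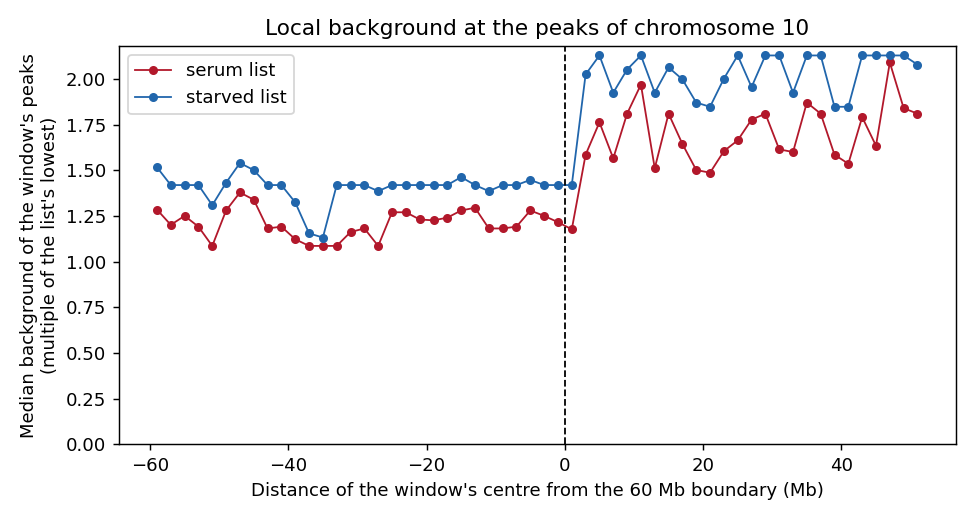
Median local background of the peaks in each complete 2 Mb window of chromosome 10, as a multiple of the lowest background of the list, against the distance of the window from 60 Mb (dashed line). In both lists the windows beyond the first distal one, 1.49 to 2.09 in serum and 1.85 to 2.13 in starved cells, lie above all proximal windows.

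Sorted by background, the serum density ratio was lowest among peaks with a low background. Each class was divided by the length of the whole part, since the length at each background is not known. The ratios therefore also reflect how the background is spread over each part, and do not place the missing serum peaks. Starved peaks gave 0.268 within 1% of the lowest, 0.112 from there to 1.2 times and 0.241 from 1.2 to 1.5 times. Peaks within 1% of the lowest background were 93 of the distal serum peaks (7.78%) and 889 of the proximal ones (18.4%), against 31.7% of the whole list, and their density ratio was 0.119 (interval 0.0953 to 0.148). Between there and 1.2 times the lowest the ratio was 0.0874, and from 1.2 to 1.5 times it was 0.226. From 1.5 to 2 times it was 0.882 (interval 0.769 to 1.01), and from 2 to 3 times it was 1.16 (interval 0.955 to 1.40). A background of more than 2 times the lowest, called raised here, held for 306 distal serum peaks (25.6%) and 338 proximal ones, against 9.15% of the list. These gave 5.81 and 5.63 peaks per Mb, a ratio of 1.03 (interval 0.881 to 1.21). Within them the ratio was 0.933 (interval 0.658 to 1.32) from 3 to 5 times, but 0.542 (interval 0.296 to 0.957) above 5 times, where there were only 19 distal and 40 proximal peaks.

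Distal starved peaks were nearly as many as proximal ones, but more of them had a raised background. Only 202 distal starved peaks (2.76%) were within 1% of the lowest background, against 859 proximal ones (9.68%) and 17.1% of the list. A raised background held for 3883 distal (53.0%) and 1794 proximal starved peaks (20.2%), against 25.0% of the list. The density of raised peaks was 73.8 per Mb in the distal and 29.9 per Mb in the proximal part. That of the others was 65.3 and 118 per Mb.

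The smallest pileup seen at each background also differed between the lists. Serum peaks of the whole list reached down to 4 fragments at up to 1.5 times the lowest background, 5 at 1.5 to 2 times, 6 at 2 to 3 times and 9 at 3 to 5 times. Starved peaks reached down to 1 fragment in every class up to 5 times the lowest. For a q of at most 0.05, serum peaks had at least 8 fragments at the lowest background and 11 at 2 to 3 times. Starved peaks had at least 2 and 3.

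**Figure D5:**
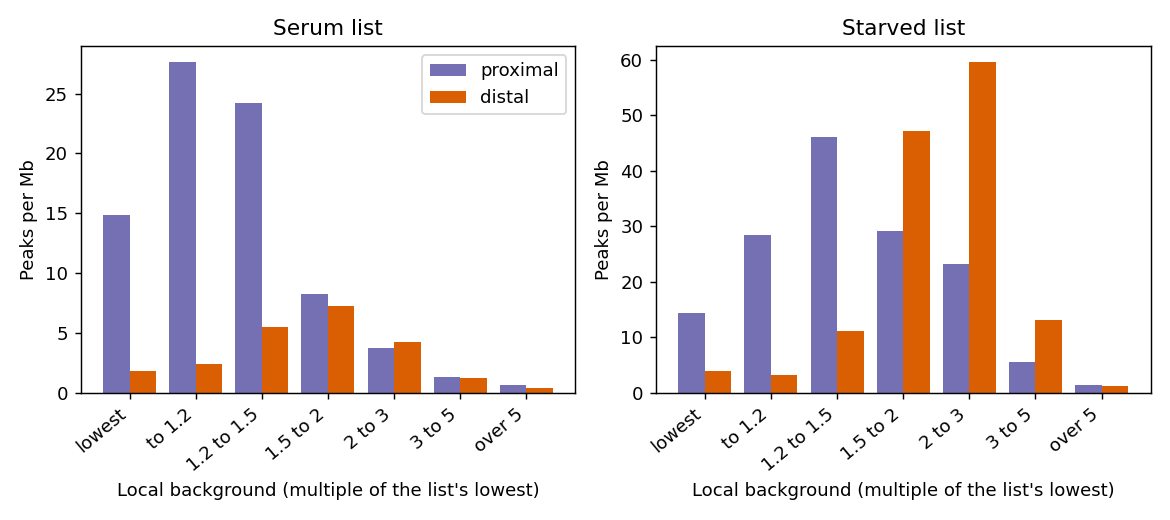
Peaks per Mb on proximal and distal chromosome 10 by local background, as a multiple of the lowest of each list (left, serum; right, starved; the first class is within 1% of the lowest). Distal serum bars are short below 1.5 times and like the proximal ones from 1.5 to 5 times, while distal starved bars are short below 1.5 times and taller than the proximal ones from 1.5 to 5 times.

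The 2 lists differed in how the share of stronger peaks changed along the chromosome. Per Mb, peaks with a q of at most 0.05 were fewer in the distal part in both, with density ratios of 0.36 in serum and 0.722 in starved cells. A q of at most 0.05 held for 270 distal serum peaks (22.6%, interval 20.2 to 25.1) and 855 proximal ones (17.7%, interval 16.6 to 18.8), against 19.9% of the whole serum list. In the starved list it held for 2902 distal (39.6%, interval 38.5 to 40.8) and 4580 proximal peaks (51.6%, interval 50.6 to 52.7), against 52.0% of the list. Strong peaks were 30 of the distal serum peaks (2.51%) and 53 proximal ones (1.10%), against 1.22% of the list, and their density ratio was 0.645 with an interval of 0.398 to 1.03. The starved list had 747 distal (10.2%) and 1103 proximal strong peaks (12.4%), against 13.0% of the list. At a −log10 q of 20 or more the numbers were 4 distal and 3 proximal serum peaks, against 0.109% of the list, and 46 and 57 starved peaks, against 0.727%.

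A larger share of distal than of proximal serum peaks overlapped a starved peak, and the reverse held for starved peaks. An overlap of at least 1 bp was found for 261 distal serum peaks (21.8%, interval 19.5 to 24.3) and 698 proximal ones (14.4%, interval 13.5 to 15.5), against 15.7% of the list. Among starved peaks it was found for 259 distal (3.54%, interval 3.13 to 3.99) and 689 proximal ones (7.77%, interval 7.22 to 8.34), against 11.0% of the list. These shares depend on how many peaks of the other list lie near, and distal serum peaks were few. Among serum peaks of raised background, 44.8% of the distal and 53.6% of the proximal ones overlapped a starved peak. Among the other serum peaks it was 13.9% and 11.5%. Shared serum peaks had a density ratio of 0.426 (interval 0.368 to 0.492), and unshared ones 0.258 (interval 0.240 to 0.277).

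Shared distal peaks were higher and had a raised background more often than the others. Their median pileup was 10 in serum, against 8 for the 935 unshared serum peaks, and 4 in the starved list, against 2 for the 7061 unshared starved peaks. A raised background held for 52.5% of shared and 18.1% of unshared serum peaks, and for 61.4% and 52.7% of starved peaks. Proximal peaks differed in the same directions, so these contrasts are not particular to the distal stretch. Shared and unshared proximal peaks had median pileups of 8 and 7 in serum, and of 3 and 2 in the starved list. Shared proximal peaks also had a raised background more often in both lists, with 35.7% against 18.9% in the starved list. By strength, 14.7% of the 926 distal serum peaks with a q above 0.05 were shared, 35.4% of the 209 from there to a −log10 q of 3, 25 of 31 from 3 to 5, 11 of 15 from 5 to 10 and all 15 at 10 or more. In the starved list the shares in these classes were 2.01%, 3.39%, 5.23%, 8.50% and 17.4%, and 21 of the 46 starved peaks at 20 or more were shared. Proximal serum peaks gave 11.4%, 20.9%, 62.3%, 94.3% and 100% in these classes. Proximal starved peaks gave 5.66%, 6.99%, 9.79%, 14.0% and 19.9%, and 20 of 57 at 20 or more.

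The 5 distal serum peaks with the highest fold enrichment, the authors' ratio of stack to background, all lay on a starved peak. The first, at 70843882 to 70844269, had a fold enrichment of 13.1 and a pileup of 113, the highest of the stretch in serum. Its background was 5.12 times the lowest, and the starved peak there had a pileup of 28. The second, at 81996813 to 81997324, had a fold enrichment of 12.9 with a background of 1.81 times the lowest. Its starved counterpart, at 81996855 to 81997350, was 32.3-fold enriched within its own list with a pileup of 38.

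A pair of peaks just beyond the edge of the low stretch was tall in both lists. The serum peaks at 63884343 to 63884722 and 63908540 to 63908935 had pileups of 55 and 48 and fold enrichments of 10.0 and 10.4. The starved peaks there, at 63884048 to 63884698 and 63908527 to 63908889, were the most enriched of the stretch, 47.5-fold and 35.0-fold, with pileups of 70 and 41. The fifth serum peak, at 94981175 to 94982067, was 7.35-fold enriched with a pileup of 28. A starved peak of 1474 bp with a pileup of 32 covered it.

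Of the 5 most enriched distal starved peaks, only the one at 100705934 to 100706327 had no serum peak. It was 32.2-fold enriched with a pileup of 38 on a background of 2.13 times the lowest, and the nearest serum peak was 14.2 kb away. The next most enriched unshared starved peaks, at 67200699 to 67201060 and 107829518 to 107829824, had pileups of 24 and 22. The nearest serum peaks were 30.8 and 44.2 kb away. They were named after their values were seen. In all, 662 strong distal starved peaks were unshared and 85 (11.4%) were shared. Among the strong proximal ones 925 were unshared and 16.1% shared, so most strong starved peaks were unshared in both parts. The share among strong peaks of the whole starved list was not computed.

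The window from 82 to 84 Mb held 7 of the 30 strong distal serum peaks, the most of any distal window, within 206 kb. Here 33 of 59 serum peaks had a q of at most 0.05 and 30 were shared (50.8%). The 7 fell into 2 kinds. Those at 82608914 to 82609617, 82628700 to 82630359 and 82660819 to 82661339 had pileups of 13, 13 and 17 on a background of 1.00 to 1.09 times the lowest. The middle one, 1660 bp, was the longest serum peak of the stretch. Only the first overlapped a starved peak, which had a pileup of 3. The middle one missed the nearest starved peak by 0.001 kb, a single base, and the last by 7.23 kb.

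The other 4 peaks of that window lay between 82807644 and 82814768 with pileups of 20 to 31 on a background of 2.36 to 3.62 times the lowest. All 4 overlapped starved peaks, with pileups of 17 to 34. The 100 kb from 82.5 to 82.6 Mb held 20 serum and 46 starved peaks, the most of any such bin of the stretch in both lists. Their median backgrounds, 1.27 and 1.42, were low for the stretch. Of the 527 bins of 100 kb, 158 (30.0%) had no serum peak and 1 had no starved peak. The empty serum bins restate the low serum count of the stretch, and no such share is given for the proximal part.

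Long peaks were few. Peaks of at least 1 kb were 13 of the 1196 distal and 34 of the 4831 proximal serum peaks. In starved cells they were 34 of the 7320 distal and 92 of the 8870 proximal peaks. The share of such peaks over the whole lists was not computed, so these counts do not set the stretch apart. The longest distal starved peak, 2728 bp at 70828164 to 70830891, lay on a background 11.0 times the lowest and 13.0 kb before the tallest serum peak of the stretch. The next starved peaks, of 1749 to 2136 bp, lay at 80450347 to 80452482, 78885111 to 78887210, 60123196 to 60125252 and 92738425 to 92740173. All 5 overlapped a serum peak. After the serum peak of 1660 bp given above, the longest in serum were those at 78731936 to 78733381, 92724307 to 92725720, 79485239 to 79486569 and 82581028 to 82582307, of 1280 to 1446 bp. The first and last of these 4 overlapped a starved peak, and the others were 3.13 and 0.035 kb from one. Typical lengths hardly differed between the parts, with medians of 333 and 337 bp in serum and 228 and 230 bp in starved cells.

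Across the 26 complete distal windows, fewer serum peaks went with a higher starved background (Spearman rho −0.750, Pearson r −0.807), and the backgrounds of the 2 lists rose and fell together (rho 0.794, r 0.820). Serum and starved counts were only weakly related (rho 0.210, r 0.415). The proximal windows gave rho values of −0.651, 0.855 and −0.239 for the same pairs. Windows of 1 library share its depth and are not replicates, so these values describe the 2 lists. The base composition of the windows, which can differ between them, was not examined.

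Chromosome 4 came closest to distal chromosome 10 in its background, but it had more serum peaks. Its serum density was 43.0 peaks per Mb, its median serum background 1.497 and its median starved background 1.92 times the lowest. On chromosome 4, 49 of 92 complete windows had both fewer serum peaks than the lowest proximal window of chromosome 10 and a starved background above the highest one, against 24 of 26 on distal chromosome 10. On the autosomes other than 4 and 10, 13 of 1153 windows had both, 5 of them on chromosome 17. The distal stretch was chosen by its low serum counts, and that criterion alone held for 24 of its 26 windows. Its count is therefore a description. Chromosome 12 had 49.4 serum peaks per Mb, but its median starved background, 1.42, was that of the other autosomes. Serum peaks with a pileup of at least 10 stood at 5.74 per Mb on distal chromosome 10, 6.20 on chromosome 12, 7.30 on proximal chromosome 10, 9.32 on chromosome 4 and 11.1 over the 19 autosomes other than 10. None of these differences was tested.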

How the data were processed

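Per the submitters' processing notes, the authors used FastQC, STAR 2.5.3a and MACS2 2.1.1 on Rnor_6.0. For options, duplicates, the control and library scaling, the sources used here give nothing. The deposited lists give for each peak a position, a length, a fold enrichment (the ratio of stack height to the local background, after adding 1 to each), a p-value, a q-value named FDR per the file headers, and a pileup signal. Each list was placed with its immunoprecipitated library by the prefix of its peak names. Positions were taken as 1-based with both ends included. Length equalled end minus start plus 1 in 100% of peaks, which shows only that both ends are included.

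To obtain the local background, 1 was added to the pileup, the sum was divided by the fold enrichment and 1 was taken off. Peaks were counted by start in windows of 2 Mb, and an overlap took 1 bp. A chromosome was taken to end at its last peak in any list. Intervals are exact Poisson intervals for densities, and exact Clopper-Pearson intervals for shares and, given the total count, for density ratios. Medians of the background have order-statistic intervals. No test was run with 1 library per group. Peaks named are the 5 most enriched and the 5 longest distal ones of each list, unless stated otherwise.

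The members and lists were chosen with earlier results of these data known. Gene annotation and sequence of Rnor_6.0 were not used here. Read totals were not used, so depth is known only through background and pileup. Functions were tested on simulated data. Work used Python 3.11.15, numpy 2.4.6, pandas 2.3.3, scipy 1.17.1 and matplotlib 3.10.9.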

Additional observations from a re-analysis of the deposited data

Results flagged for a closer look

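For 3 measures of distal chromosome 10, each a share of the peaks of a list, the 2 lists moved in opposite directions against the proximal part. They rest on 1 library each, and these differences were not tested. Counted per Mb, such peaks were fewer in the distal part in both lists. The serum and starved density ratios were 0.36 and 0.722 at a q of at most 0.05. For a −log10 q of at least 5 they were 0.645 (interval 0.398 to 1.03) and 0.772, and for overlapping peaks 0.426 and 0.429. The share of peaks that overlapped a peak of the other list was 7.37 percentage points higher in the distal part in serum, and in the starved list the difference was -4.23 points. The share with a q of at most 0.05 differed by 4.88 points in serum and by -12.0 points in starved cells. The share with a −log10 q of at least 5 differed by 1.41 points in serum and by -2.23 points in starved cells.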

How the results depend on the processing

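No paired analysis was possible because 1 precipitated library stands for a condition, which also leaves no replicate to drop. Of 34 values under other settings, 10 stayed within the interval of the reported value, 24 left it and 0 changed direction. A direction was defined only for the ratios, as above or below 1. The overlap shares were recomputed for distal peaks alone and have no direction, so they could not change it. That interval covers counting error for densities and shares, and for a ratio of median backgrounds it runs between the outer quotients of the 95% order-statistic intervals of both medians. The serum density ratio of 0.282 was 0.36 at a q of at most 0.05, 0.645 for strong peaks (−log10 q of 5 or more), 0.226 without peaks of raised background, 0.389 with the boundary at 50 Mb and 0.218 as a median over windows. Chosen after seeing the data, a boundary at 63 Mb gave 0.244 and a pileup of at least 10 gave 0.786. For the same settings the starved ratio of 0.941 left its interval at 0.722, 0.772 and 0.554 (q, strong peaks and background) and at 0.892 (pileup). The share of distal serum peaks overlapping a starved peak, 21.8%, was 8.95% where an overlap had to span 50% of the serum and of the starved peak, 38.5% at a q of at most 0.05 and 70% for strong peaks of both lists. The starved share of 3.54% was 1.46% at a 50% overlap and 2.81% for strong peaks. The background ratio of 1.35 in serum was 1.45 at a q of at most 0.05, 1.23, 1.41 and 1.42 with the boundary at 50, 70 and 63 Mb and 1.31 as a mean. In starved cells, 1.45 became 1.28 at a q of at most 0.05, 1.36 with the boundary at 50 Mb and 1.31 as a mean. The settings that drop peaks rest on fewer of them by construction, and for the others the cause was not tested. At 8 to 30 serum peaks in many distal windows, differences between single windows are limited by counting error.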
